A study of Arabidopsis thaliana with 6 samples.

Results

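The most abundant nuclear transcripts of the Arabidopsis thaliana embryo cotyledon were examined in 3 libraries, made from 100 pg, 75 pg and 50 pg of total RNA. They were chosen by RNA amount out of the 6 libraries of a dilution series. The 3 libraries were dilutions of a single RNA sample and shared a sequencing date, and were treated here as near replicates. The RNA was that of whole cotyledons, cut by laser microdissection out of untreated wild-type (Col-0) embryos taken at 8 days after fertilization; in the labels the tissue is named seed, at Boyes stage 6.30. No transgene, mutation or treatment was involved. Sections of several plants had been pooled into that RNA, so each amount has 1 library and the spread between libraries is technical: it holds nothing of the variation between plants, and no test between amounts was possible. Amount and library cannot be told apart here, so any effect of amount is part of that spread. The SMART-Seq v4 chemistry used starts cDNA from poly(A) tails and multiplies full-length cDNA by PCR. Paired-end reads carried no strand information. Values are raw counts of read pairs assigned to 1 gene model.

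A cotyledon of this age is a growing, greening seed leaf. Its cells divide and expand, build plastids that photosynthesize inside the seed, and begin to fill with oil and protein reserves, while the outermost layer, the epidermis, covers itself with a cuticle. Growing plant tissue is known for high levels of transcripts of ribosomal proteins, which are encoded in Arabidopsis by small families of near-identical genes, and seed leaves for transcripts of the light-harvesting antenna and of Rubisco, the enzyme that fixes carbon dioxide.

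The libraries held 30522405 (100 pg), 22196710 (75 pg) and 28447877 (50 pg) read pairs on 33323 nuclear gene models, which was 99.1 to 99.3% of the pairs counted. At least 1 pair was found for 19111, 19373 and 18330 nuclear genes, respectively, and 16751 genes (50.3% of the models) were detected in each of the 3 libraries. Levels of different genes are compared below as TPM, pairs per base of the gene model scaled to the same total, 1000000, over nuclear genes. Values of 1 gene in the 3 libraries are given as TPM or, where stated, as CPM. CPM are pairs per 1000000 nuclear pairs, adjusted by TMM factors of 0.975 to 1.04 unless noted. Correlations, fold differences and coefficients of variation over genes use CPM. The scales can order the libraries differently: the calmodulin gene CAM4 had 649, 633 and 617 TPM at 100, 75 and 50 pg, but 451, 528 and 529 CPM. Means are given with the SD over the 3 libraries.

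The gene with the most pairs per base apart from models with long homopolymers, described further on, was RBCS1A (AT1G67090, chr1:25048158-25049667 of TAIR10.1, minus strand), which encodes a small subunit of Rubisco. Its TPM was 6435 in the 100 pg library, 7120 in the 75 pg library and 8283 in the 50 pg library (mean 7279 ± 934, SD, n = 3). It was followed by LCR69 (AT2G02100, chr2:528179-529186), a small cysteine-rich protein of the plant defensin family, with 4475, 6327 and 7448 TPM in the same order of libraries. CAB1 (AT1G29930, chr1:10477885-10479114), a chlorophyll-binding protein of the photosystem II antenna, reached 5909, 3760 and 4515 TPM. The 100 pg library was the lowest of the 3 for RBCS1A and LCR69 and the highest for CAB1, so the order of these 3 genes differed between libraries. The first rank also depended on the length used: with 200 bases taken off each model, the mean of LCR69 was 7617 TPM and that of RBCS1A 6842 TPM.

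GRP7 (AT2G21660), a glycine-rich RNA-binding protein under circadian control, had 4521, 4187 and 5207 TPM at 100, 75 and 50 pg. LP1 (AT2G38540), the lipid transfer protein LTP1 secreted by epidermal cells, had 4241, 4539 and 5002 TPM. UBQ1 (AT3G52590) and UBQ5 (AT3G62250), each coding for ubiquitin fused to a ribosomal protein, had means of 3720 ± 832 and 3295 ± 382 TPM. For these 4 genes the lowest and highest TPM were within 2-fold of each other. AT4G29030, a putative membrane lipoprotein with no assigned role, stood at the same height, with 2959, 3419 and 4376 TPM.

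**Figure D1:**
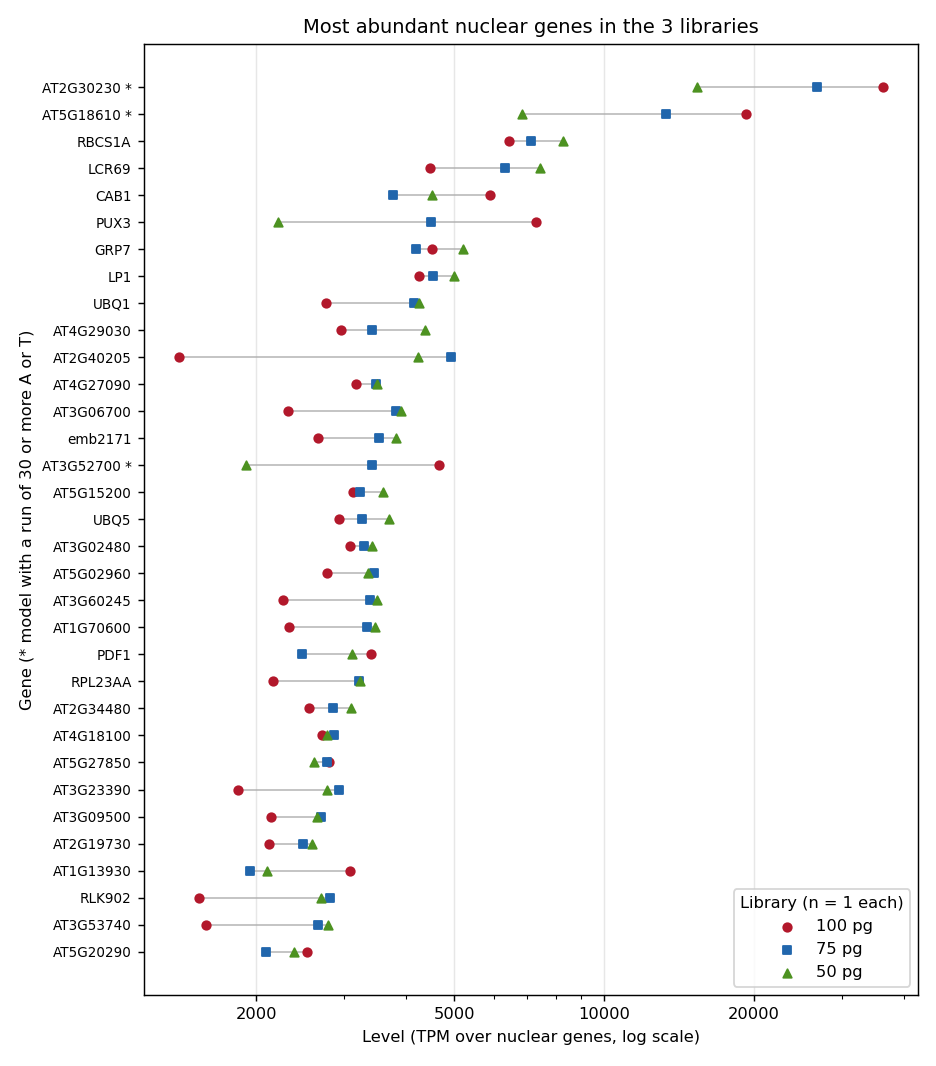
Level of the 30 most abundant nuclear genes without a long homopolymer and, marked with an asterisk, of the 3 with one that would rank among them (TPM, log axis, 1 point per library). Points of 1 gene mostly lie close together, but the 3 marked genes, and PUX3, run from the 50 pg library as the lowest to the 100 pg library as the highest.

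Of the 30 genes with the highest mean TPM, 18 coded for ribosomal proteins, with means between 2335 and 3520 TPM. AT4G27090, for ribosomal protein L14 of the large subunit, had 3169, 3476 and 3494 TPM at 100, 75 and 50 pg. AT5G15200, annotated as ribosomal protein S4, had 3136, 3239 and 3590 TPM, and AT5G02960, of the S12/S23 family, had 2780, 3450 and 3351 TPM. Each of these 3 genes kept to a narrow band of TPM over the 3 libraries. In 16 of the 18 the lowest TPM was that of the 100 pg library. The least stable was AT2G40205, for L41, with 1402 TPM at 100 pg against 4927 and 4231 TPM at 75 and 50 pg. Its model is the shortest of the 30, with 116 bases, so a TPM per base is least certain there. AT3G18740 carries the symbol RLK902 in the annotation but a ribosomal protein L30e product, and was counted by its product (mean 2347 ± 706 TPM).

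Among the other members of the 30, PDF1 (AT2G42840, chr2:17826071-17827648), PROTODERMAL FACTOR 1, a proline-rich cell wall protein made in the epidermis, had 3401, 2469 and 3113 TPM. AT3G02480, of the late embryogenesis abundant (LEA) family, had 3093, 3300 and 3412 TPM. AT1G13930 had 3082, 1946 and 2102 TPM. Its product is named oleosin-B3-like protein. The 30 genes together held 10.3% of the TPM, and by CPM 24 of them stayed within 2-fold over the 3 libraries.

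Ribosomal proteins filled 67 of the 100 and 161 of the 300 most abundant places, although their 411 genes made up 1.23% of the nuclear models. Of the 411, 396 were detected in the 3 libraries, and they carried 22.5%, 27.6% and 28.4% of the summed TPM at 100, 75 and 50 pg. Of the 411, 24 have names that place them in plastid or mitochondrial ribosomes, and these 24 took none of the 100 and 2 of the 300 places. Members of such ribosomes with general names are not among the 24. Many ribosomal protein genes come in near-identical copies, between which the deposited counting, which removed pairs with more than 1 hit (1.23 to 1.33% of pairs), cannot share reads. The level of a single copy is therefore uncertain, and the sum over copies lacks the removed pairs too.

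Some of the ribosomal protein genes share short promoter sequences. The upstream sequences of 3 of the most abundant ones and of RBCS1A are shown because the motif shares below are read from such windows. Each has the 250 bases before the RefSeq gene start, 5′ to 3′ (TAIR10.1). The capitals mark matches, on either strand, to the TATA box (TATAAA), the site II element (TGGGCC), the telo box (AAACCCTA), the G-box (CACGTG) or the RY element (CATGCATG). The windows lie at chr4:13595253-13595502, minus strand for AT4G27090, chr5:4936430-4936679, minus strand for AT5G15200, chr5:694516-694765, minus strand for AT5G02960 and chr1:25049668-25049917, minus strand for RBCS1A.
AT4G27090: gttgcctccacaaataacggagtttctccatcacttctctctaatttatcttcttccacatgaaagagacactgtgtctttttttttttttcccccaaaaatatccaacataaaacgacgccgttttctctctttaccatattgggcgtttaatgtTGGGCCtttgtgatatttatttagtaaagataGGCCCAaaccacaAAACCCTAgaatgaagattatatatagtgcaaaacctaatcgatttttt
AT5G15200: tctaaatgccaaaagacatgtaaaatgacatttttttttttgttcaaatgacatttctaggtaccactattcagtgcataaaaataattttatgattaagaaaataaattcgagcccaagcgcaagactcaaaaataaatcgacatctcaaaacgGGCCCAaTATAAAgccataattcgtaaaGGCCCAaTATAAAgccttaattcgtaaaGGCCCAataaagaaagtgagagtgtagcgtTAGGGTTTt
AT5G02960: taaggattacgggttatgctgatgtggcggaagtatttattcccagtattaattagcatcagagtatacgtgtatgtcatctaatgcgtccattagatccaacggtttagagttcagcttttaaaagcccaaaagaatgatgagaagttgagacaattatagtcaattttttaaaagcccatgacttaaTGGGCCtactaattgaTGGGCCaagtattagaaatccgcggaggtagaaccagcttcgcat
RBCS1A: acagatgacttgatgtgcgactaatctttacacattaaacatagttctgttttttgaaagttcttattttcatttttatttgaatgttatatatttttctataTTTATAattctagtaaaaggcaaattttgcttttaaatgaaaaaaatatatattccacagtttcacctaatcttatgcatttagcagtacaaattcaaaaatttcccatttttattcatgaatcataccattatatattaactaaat

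AT4G27090 held a site II element starting 94 bases before the gene start, another on the other strand 62 bases before it, and a telo box at 49 bases. In AT5G15200, site II elements on the reverse strand began 95, 67 and 39 bases before the start, TATA boxes began at 88 and 60 bases, and a telo box on the reverse strand began at 9 bases. AT5G02960 had site II elements at 61 and 45 bases. The RBCS1A window had none of these and a single TATA box match on the reverse strand.

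The site II element was present in 94 of the 161 windows of ribosomal protein genes among the 300 most abundant genes (58.4%), in 23.7% of the windows of the other 139 genes of that list, in 18.5% of 16721 genes detected in the 3 libraries and in 12.3% of all 32834 nuclear windows. Over the windows of all 411 ribosomal protein genes, whatever their level, the site II share was 44.5%. The telo box was in 19.9% of the 161 and 16.3% of the 411, against 2.88% of the other 139, 4.05% of detected genes and 4.75% of all windows. Both together were in 21 of the 161 (13.04%), against 0.932% of all windows. The G-box, a site for light- and abscisic acid-regulated factors, was in 3 of the 161 and in 13 of the other 139 (1.86% and 9.35%), beside 7.71% of the detected genes. The TATA box was in 50.9% of the 161 and 45.8% of all windows. The RY element, the site of the seed regulators of the B3 family, was in 3 of the 300 (1%) and in 0.853% of all windows. A match is a run of letters in a window, not a shown binding site, and ribosomal protein copies that arose by duplication do not count as independent.

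Among classes with a defined role, the signalling class, named for kinases and phosphatases, came second by share, with 7.21%, 5.88% and 5.25% of the TPM. This class of 3128 genes also holds genes of other roles, such as calmodulin CAM4 and the small GTP-binding protein ARFA1D. It includes AT5G18610, a gene with a long homopolymer, too. Photosynthesis had far fewer genes. Of 80 nuclear genes of the light reactions (0.240% of the models), 78 were detected in the 3 libraries, 1 was among the 100 most abundant and 19 were among the 300. Together they made 2.95%, 2.70% and 2.98% of the TPM. PSBR, a small photosystem II subunit, had 1229, 1337 and 1444 TPM at 100, 75 and 50 pg, and PSBX, another, 984, 1108 and 1226 TPM. PSBO1, of the oxygen-evolving complex, had 973, 600 and 711 TPM, whereas PSAH2, of photosystem I, had 447, 944 and 850 TPM, lowest at 100 pg. Within the antenna family, CAB3 (AT1G29910) had a mean of 958 ± 217 TPM and CAB2 (AT1G29920) one of 152 ± 31.2 TPM. LHB1B2 (AT2G34420) had a mean of 803 ± 180 TPM and LHB1B1 (AT2G34430) one of 1.51 ± 0.247 TPM. Within the Rubisco small subunits, RBCS3B, RBCS2B and RBCS1B had means of 271 ± 54.8, 230 ± 32.4 and 159 ± 18.2 TPM, far under RBCS1A. Copies of both families are similar enough that pairs removed as multi-hits bear on these levels.

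Genes of carbon fixation (45) carried 0.991 to 1.13% of the TPM, most of it from RBCS1A. After it came CP12-1, a regulator of the Calvin cycle, at 315 ± 28.7 TPM, and the plastid aldolase FBA2 at 302 ± 72.0 TPM. RNA-binding and processing genes carried 2.96 to 3.22%, led by GRP7 and the glycine-rich protein gene AT1G04660 (1557 ± 304 TPM). Histones and chromatin genes (134, 0.402% of the models) carried 2.92 to 3.07%, with 3 of the 100 and 22 of the 300 places. Of them AT5G59690, a histone, had 1638, 2028 and 2119 TPM, and HTB2, histone H2B, had 2403, 1605 and 1734 TPM. Histone transcripts of flowering plants carry poly(A) tails, and so enter a poly(A)-primed library.

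Translation factors took 1.27 to 1.58% of the TPM. The most abundant, AT5G60390, an elongation factor 1-alpha gene, had 3053, 1775 and 1876 TPM at 100, 75 and 50 pg, and its near-identical copies AT1G07920, AT1G07930 and AT1G07940 had means of 311 ± 82.7, 308 ± 68.0 and 273 ± 75.1 TPM. FBR12, the initiation factor eIF-5A, had 1419, 1356 and 1628 TPM. Chaperones took 1.62 to 1.80%, with the cyclophilins ROC3 (1597 ± 56.8 TPM) and ROC5 (1101 ± 36.2 TPM) ahead of HSC70-1, the constitutive HSP70, which had 1235 TPM at 100 pg and 564 and 515 TPM at 75 and 50 pg. Respiration and glycolysis took 2.54 to 2.71%, led by the ADP/ATP carrier AAC1 (964 ± 133 TPM) and GAPC1 (845 ± 99.6 TPM).

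Lipid transfer and cuticle genes (268, 0.804% of the models) carried 1.43, 1.67 and 1.78% of the TPM with 4 of the 100 places. Next to LP1 stood AT5G38170, a lipid transfer protein family member with 824 TPM at 100 pg against 2494 and 2483 TPM at 75 and 50 pg, and LTPG1, a lipid transfer protein anchored in the membrane, with 1511, 1878 and 2067 TPM. Each had its lowest value at 100 pg. In fatty acid and oil synthesis (0.896 to 0.972%), the acyl carrier proteins, which hold the growing fatty acid in the plastid, led: ACP2 at 1479 ± 140 TPM, ACP1 at 1344 ± 280 TPM and ACP3 at 900 ± 199 TPM. In the cell wall class (1.46 to 1.62%) the arabinogalactan protein AGP15 came highest, with 874, 1841 and 1848 TPM, and AT2G27385, of the extensin family, had 1091 ± 288 TPM. GASA4, of the gibberellin-regulated GASA peptides, led the hormone response class at 889 ± 42.0 TPM, before the auxin response gene IAA8 at 283 ± 49.3 TPM. Among transport genes the aquaporin PIP3 had 871 ± 34.3 TPM and the sucrose exporter SWEET11 432 ± 85.1 TPM. Redox genes were led by the thioredoxin family gene AT3G52960 (1090 ± 268 TPM) and TRX3 (915 ± 63.5 TPM), and the cytoskeleton by tubulin TUA4 (661 ± 252 TPM) and actin ACT7 (593 ± 122.7 TPM). Calmodulin CAM4 had 649, 633 and 617 TPM. The 132 cell cycle genes (0.396% of the models) held 0.307 to 0.371% of the TPM, with a median of 17.9 TPM over those detected in the 3 libraries, beside 13.4 TPM over all such genes. The cyclin CYCD3;2 had 237 ± 36.1 TPM and TSO2, a ribonucleotide reductase subunit, 206 ± 40.8 TPM.

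**Figure D2:**
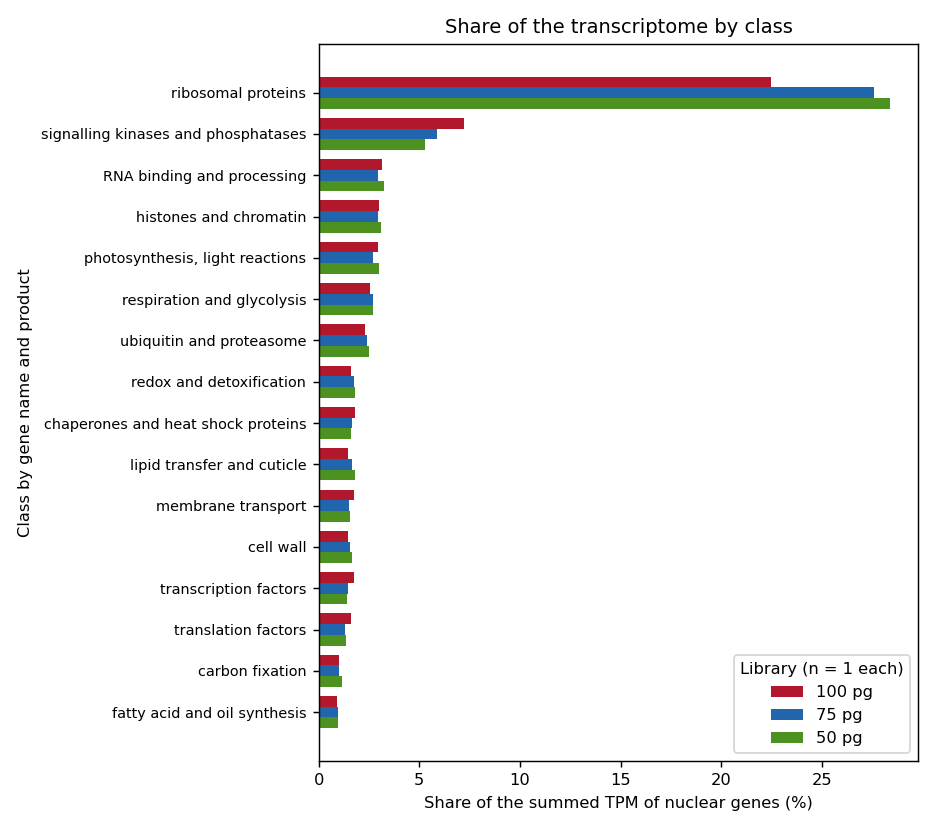
Share of the summed TPM of nuclear genes (%) for the 16 largest functional classes with a defined role, 1 bar per library. Ribosomal proteins carry 22.5% at 100 pg and 27.6 and 28.4% at 75 and 50 pg, while each of the other classes stays under 10% in every library.

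Transcription factors were scarce at this height. Of 1277 genes placed in this class by their names (3.83% of the models), 635 were detected in the 3 libraries, a share close to the 50.3% of all nuclear models. No member was among the 100 most abundant, and the class held 1.40 to 1.73% of the TPM. The highest was SHP1, a MADS-box gene of the fruit valve margin, at 1200, 1012 and 568 TPM, but its RefSeq transcript holds a long run of A described below. The next was AT2G28710, a C2H2 zinc finger gene, at 726, 411 and 274 TPM, for which many more single reads than pairs were counted. The zinc finger genes AT3G02790 and AT5G16470 had means of 379 ± 84.7 and 286 ± 82.96 TPM. AT2G30620, a linker histone by common knowledge but annotated here as a winged-helix factor, had 220 ± 52.9 TPM, and the GATA factor gene AT4G16141 had 220 ± 55.8 TPM. ICE1, a bHLH factor of stomatal development and cold response, had 194 ± 67.8 TPM, HB25, a zinc finger homeodomain gene, 185 ± 32.9 TPM, TCL2, a MYB inhibitor of hair formation, 181 ± 56.7 TPM, and AFO, the YABBY gene FILAMENTOUS FLOWER of the lower organ side, 180 ± 69.2 TPM.

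Among genes of unknown function without a long run, SVB, which encodes a DUF538 protein, was the highest, at 1805, 1953 and 1984 TPM. AT2G41650 followed with 912, 949 and 890 TPM, and AT1G17200 with 606, 709 and 795 TPM. In TPM, the values of SVB and AT2G41650 were close to level over the 3 libraries.

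The tissue was compared with marker lists chosen for cotyledon, embryo and neighbouring tissues. Each of 9 polarity genes of the cotyledon and each of 8 epidermal genes was detected in the 3 libraries, beside 50.3% of all nuclear models. AFO and AS1 (81.4 TPM) led the first list and LP1 and PDF1 the second. Their medians over genes were 22.2 and 80.6 TPM, beside 13.4 TPM over nuclear genes detected in the 3. The embryo regulators FUS3 (111, 134 and 159 TPM) and WRI1 (111, 101.4 and 62.2 TPM), which drive seed maturation and oil synthesis, led a list of which 7 of 10 were detected in each library. WOX2 and WOX9, genes of the very young embryo, had no pair in any. The mesophyll list had 7 of 8, with CA1, a carbonic anhydrase of mature leaves, at 0, 2 and 0 pairs.

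Shoot meristem genes were low. Their summed level over 6 genes was 5.07, 3.40 and 0.0586 TPM. WUS and CLV3 had 0 pairs in each library, STM, a meristem homeobox gene, 1, 0 and 1 pairs, CUC3, a boundary gene, 140, 61 and 1 pairs and CUC2 3, 21 and 0 pairs. Of 12 seed coat genes, 5 were detected in the 3 libraries, beside 50.3% of all nuclear models. No pair in any library was found for 6 of the 12, beside 36.2% of all nuclear models. These 6 were TT10, BAN, TT2 and TT1 of the tannin pathway of the coat, STK and the peroxidase gene PRX36. TTG2 (34.5, 13.3 and 12.8 TPM) and MUM4 (25.0, 24.2 and 23.9 TPM) were the highest of that list. Of 10 endosperm genes, 7 were detected in the 3 libraries, and FWA, PHE1 and MEA had no pair in any. ZOU, a bHLH regulator of endosperm breakdown, had 95.9, 52.7 and 31.0 TPM. ALE1, a protease of the same tissue, had 44.8, 18.5 and 31.2 TPM. The summed level of the endosperm list was 174, 93.7 and 83.4 TPM and that of the seed coat list 63.3, 38.8 and 44.3 TPM at 100, 75 and 50 pg. In bulk RNA, a few cells of a type and little RNA in many cells cannot be told apart. In the root list, the stem cell gene WOX5 reached 40.01, 47.3 and 67.1 TPM and SCR, of the ground tissue, 27.9, 7.75 and 1.97 TPM, while PLT1 and PLT2 had at most 1 pair in a library. Of 8 vascular genes, 3 were detected in each library, with TMO5 highest after ATHB-15 at 100 pg (8.55 TPM) and highest of the list at 75 and 50 pg (9.77 and 20.4 TPM).

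Storage protein transcripts were low. Of 9 genes, 3 were detected in the 3 libraries, the summed level was 14.96, 14.6 and 20.8 TPM, and the cruciferin gene AT1G03890 had no pair in any. SESA1, a 2S albumin, had 4.46, 9.62 and 17.1 TPM, and the cruciferin gene CRC (AT4G28520, CRU3 in RefSeq) 7.80 and 3.41 TPM at 100 and 75 pg and no pair at 50 pg. Oil body proteins were higher. Each of 5 oleosins was detected in the 3 libraries, with 701, 685 and 668 TPM for OLEO3 and 436, 420 and 392 TPM for AT3G01570. Each of 14 commonly used reference genes was detected, led by UBQ5 and AT5G60390. Their spread differed: ACT2 had 142, 117 and 127 TPM, while PP2AA3 had 40.4, 21.4 and 9.40 TPM. Of 16 stress and handling genes, 15 were detected in each library. The touch genes TCH2 (367, 324 and 236 TPM) and TCH4 (246, 301 and 280 TPM) led this list, and DREB2A, a drought-response regulator, differed between libraries, with 43.2, 3.74 and 3.65 TPM.

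The transcriptome was spread over many genes. The 10 most abundant genes carried 9.66%, 7.97% and 6.55% of the TPM at 100, 75 and 50 pg, the 100 most abundant 26.01%, 27.3% and 26.3%, and the 1000 most abundant 61.1%, 65.8% and 65.7%. The number of genes that carried 50% of the TPM was 501, 393 and 403. The 100 most abundant models were short, with a median of 727 bases against 1521 bases for the genes detected in the 3 libraries, and had a median of 3 introns against 4. Their GC content, 41.0%, was near the 41.6% of detected genes. The ranking divides pairs by model length, and by CPM without length 78 of the 100 genes stayed on the list. The part of RNA integrity in the short length was not tested.

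Models with a run of at least 30 A or T stood at the top of the list. The run was sought in the RefSeq transcript, not in the deposited model. Where RefSeq held the same model, 35.6% had an equal length and 81.6% a length within 20%. In AT4G31570 the run starts at base 8565 of a RefSeq transcript of 8753 bases, while the deposited model has 8511 bases. Whether each deposited model holds its run was not tested. AT2G30230, annotated as lumazine synthase, of riboflavin synthesis, and with a run of 36 T, had 36375, 26794 and 15379 TPM at 100, 75 and 50 pg, more than any other gene in each library. AT5G18610, a protein kinase gene with a run of 37 T, had 19308, 13298 and 6843 TPM. AT3G52700, of unknown function with a run of 32 A, had 4665, 3413 and 1910 TPM. In each, the 100 pg library was the highest and the 50 pg library the lowest.

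Of 11 models with such a run, 10 reached a mean of 1 CPM, and in each of these 10 the CPM before TMM adjustment fell in the order 100, 75, 50 pg, an order found in 23.2% of the 16829 nuclear genes at that level. After TMM adjustment 9 of the 10 had it, against 21.5% of all, the exception being SHP1 with 1860, 1881 and 1086 CPM. The median ratio of 100 to 50 pg, before adjustment, was 2.14 for the 10 and 1.08 for all genes. They took 8.00%, 6.56% and 3.59% of the nuclear pairs. Models with a run of 25 to 29 had the same order in 11 of 13 cases, with a median ratio of 2.15, and those with 20 to 24 in 68 of 120, with a median ratio of 1.92 (10 and 64 after adjustment). The eleventh model, LCR11, had no pair.

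By annotation they were varied: a nucleoporin-annotated gene (AT4G31570), a prenylyltransferase family gene (AT1G10095), the MADS-box gene SHP1 and the pseudogenes SADHU6-1, AT2G23880, AT1G42140 and AT5G34851 were among them. In SHP1 the run of 31 A arises where the spliced exons join, and the longest run in the unspliced gene is 18. The runs of the 4 pseudogenes are shown, since their levels among active genes rest on models with these stretches. The run is in capitals, with up to 25 bases on each side in the gene's orientation (TAIR10.1). They lie at chr3:526200-526255, plus strand (SADHU6-1), chr2:10167046-10167127, minus strand (AT2G23880), chr1:15737666-15737747, minus strand (AT1G42140) and chr5:13086853-13086932, plus strand (AT5G34851).
SADHU6-1: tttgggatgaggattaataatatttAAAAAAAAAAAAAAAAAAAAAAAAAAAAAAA
AT2G23880: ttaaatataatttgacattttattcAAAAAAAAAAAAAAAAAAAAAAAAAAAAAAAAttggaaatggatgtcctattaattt
AT1G42140: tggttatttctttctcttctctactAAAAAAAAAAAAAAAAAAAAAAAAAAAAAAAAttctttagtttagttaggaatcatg
AT5G34851: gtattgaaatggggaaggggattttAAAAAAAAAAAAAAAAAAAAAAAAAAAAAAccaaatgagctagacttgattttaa

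SADHU6-1, a SADHU retroelement copy, had 2492, 1643 and 824 TPM, with the run at the very end of the gene. AT2G23880 had 1028, 770 and 423 TPM, AT1G42140 had 735, 507 and 257 TPM and AT5G34851 had 273, 188 and 93.0 TPM. Each again was highest at 100 pg and lowest at 50 pg. A count per gene does not show where along the model the pairs lie, so pairs on the run and pairs on the rest of the model cannot be told apart here. PUX3 (AT4G22150), which encodes a UBX-domain protein, showed the same order with 7314, 4500 and 2210 TPM. The reference transcript of PUX3 has no run of 30, but a run of 36 lies in the genome 173 bases before its RefSeq start, and the deposited model (1339 bases) is longer than the RefSeq one. It was kept in the list of 30, as the rule looked only at the transcript.

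Agreement between the libraries was first measured over the 16829 nuclear genes with a mean of at least 1 CPM. Taken over genes, which do not count as independent replicates, Spearman's rho was 0.850 between 100 and 75 pg, 0.848 between 75 and 50 pg and 0.803 between 100 and 50 pg, and Pearson's r of log2(CPM + 1) was 0.849, 0.842 and 0.789. Within 2-fold of each other were 64.3%, 64.1% and 56.2% of genes for the same pairs, and 13.5%, 17.1% and 21.1% differed by more than 4-fold. The median absolute difference was 0.63, 0.61 and 0.77 on the log2 scale.

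**Figure D3:**
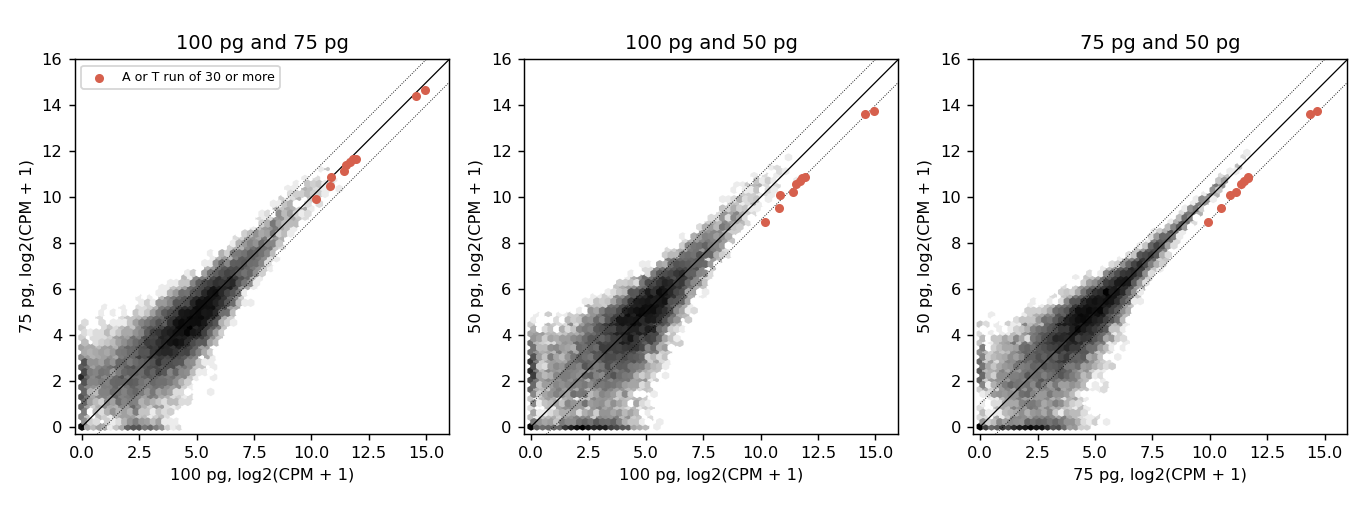
Level of each nuclear gene with a mean of at least 1 CPM in the 3 pairs of libraries (log2(CPM + 1), darker cells hold more genes), with genes that hold a run of 30 or more A or T in red. The solid line marks equality and the dotted lines a 2-fold difference, and the red points lie along the lower side, near the 2-fold line, where 50 pg is on the vertical axis.

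The agreement depended on abundance. Of the 5044 genes with a mean of 1 to 10 CPM, 12.5% kept all 3 libraries within 2-fold, of the 10076 genes with 10 to 100 CPM 47.0%, of the 1595 with 100 to 1000 CPM 81.6% and of the 114 above that 82.5%. The median coefficient of variation over the 3 libraries was 0.836, 0.368, 0.213 and 0.213 in these bands, while counting error alone would give medians of 0.0910, 0.0368, 0.0143 and 0.00521. In each band the observed spread was far above that of counting. Over all 16829 genes, the common biological coefficient of variation fitted by edgeR, which here holds only technical variation, was 0.781, and it was 0.482 over the 11785 genes with at least 10 CPM. Between 75 and 50 pg, 99.2% of genes with 100 to 1000 CPM and each of the 114 genes above were within 2-fold.

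**Figure D4:**
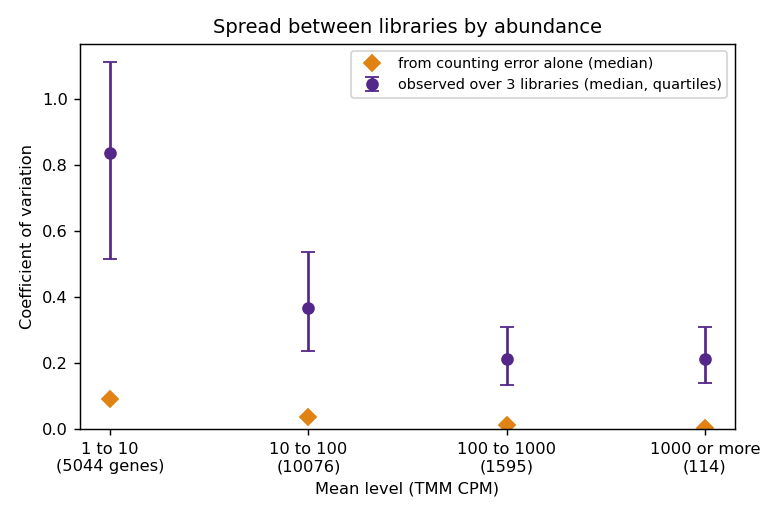
Coefficient of variation over the 3 libraries by mean CPM (points are medians, bars the quartiles over genes) with the median that counting error alone would give. The observed median declines from 0.836 to 0.213 and stays above counting error in each band.

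Genes with no pair in 1 library were mostly of low level. Among genes with pairs in both other libraries, none with a mean of at least 100 CPM in these was at 0 in the remaining library (of 1711, 1749 and 1717 genes for 100, 75 and 50 pg). With 10 to 100 CPM, 6 of 9710 were at 0 at 100 pg (0.0618%, exact 95% interval 0.0227 to 0.134%), 6 of 9970 at 75 pg (0.0602%, 0.0221 to 0.131%) and 36 of 10138 at 50 pg (0.355%, 0.249 to 0.491%). With 1 to 10 CPM the shares were 5.11%, 3.31% and 11.8%. Each gene here counts as independent, and intervals cover counting error only. Among such genes, MYB47, a MYB factor gene, had 387 pairs at 75 pg and 406 at 50 pg but none at 100 pg. AT3G19970, of the alpha/beta-hydrolase superfamily, had 364 and 249 pairs at 100 and 50 pg and none at 75 pg, and PGR3, a plastid pentatricopeptide protein gene, had 617 and 499 pairs at 100 and 75 pg and none at 50 pg. ATE2F2, an E2F factor of the cell cycle, had 1052 and 343 pairs at 100 and 75 pg and none at 50 pg. By counting error alone, no pair in a library allows a level of up to 3 counts, or 0.0983, 0.135 and 0.105 CPM for 100, 75 and 50 pg. MYB47, with none at 100 pg, had 17.4 and 14.3 CPM before adjustment at 75 and 50 pg. A library without a pair therefore does not cap the level in the RNA at that bound.

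Of the 100 most abundant genes of each library, 70 were common to the 3, and 91 were common to 75 and 50 pg, against 73 for 100 and 75 pg and 75 for 100 and 50 pg. Among the 300 most abundant, 240 were common to the 3 (80.0%), and among the 1000 most abundant 801 (80.1%). The 21 genes common to 75 and 50 pg alone had a median length of 587 bases and held 17 ribosomal protein genes, such as AT3G44010 (1188 TPM at 100 pg against 2573 at 75 pg). The 22 found at 100 pg alone had a median length of 1108 bases and held 14 ribosomal protein genes, such as P40 (1655 TPM at 100 pg against 1254 at 75 pg). Ribosomal protein genes were 67 of the 100 by mean TPM. Among the others of the 22 were HSC70-1, TCTP (1994, 1488 and 1479 TPM), a translationally controlled growth protein, and HOG1 (1378 and 692 TPM at 100 and 75 pg), of the methyl cycle.

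Transcript length divided the 100 pg library from the others. For the 149 genes of up to 500 bases with a mean of at least 10 CPM, the median difference of 100 minus 75 pg was -1.10 on the log2(CPM + 1) scale, and 93.3% were lower at 100 pg. For 936 genes of 500 to 750 bases it was -0.72, for 3161 genes of 1000 to 1500 bases -0.03, and for 943 genes of 3000 to 5000 bases 0.51. The differences of 100 minus 50 pg were -1.11, -0.82, -0.11 and 0.55 in the same groups. Between 75 and 50 pg the medians stayed between -0.09 and 0.18 in each of the 8 length groups. In 11785 genes, Spearman's rho of the difference with length was 0.443 for 100 minus 75 pg, 0.411 for 100 minus 50 pg and 0.0242 for 75 minus 50 pg. The 100 pg library also had the lowest share of its pairs counted on genes, 80.3% against 89.0 and 90.9%, whose part in this was not tested.

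**Figure D5:**
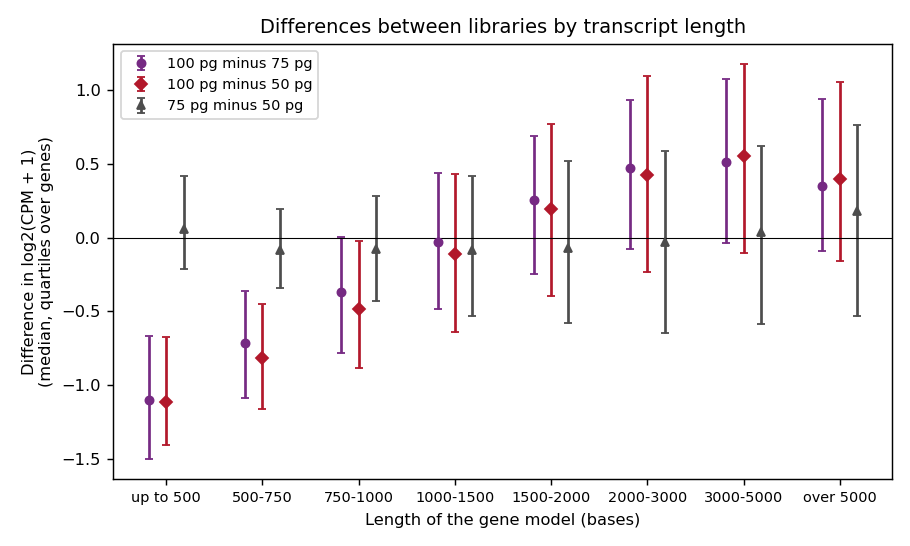
Difference in log2(CPM + 1) between pairs of libraries for nuclear genes of at least 10 CPM, by length of the gene model (points are medians, bars the quartiles over genes). The 2 differences with the 100 pg library go from -1.10 and -1.11 in the shortest models to 0.51 and 0.55 in those of 3000 to 5000 bases, while 75 minus 50 pg stays near 0.

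The length pattern reached the most abundant genes. Of 148 models of up to 750 bases among the 300 most abundant genes without a run, 130 had their lowest TPM at 100 pg, and of 52 models over 1000 bases 41 had their highest there. Of the 396 ribosomal protein genes detected in the 3 libraries, whose median length was 794 bases, 54.5% had a lower TPM at 100 pg than at both other amounts, beside 25.96% of the 16751 nuclear genes detected in the 3. When the median of 20 length groups was subtracted in each library, the median absolute log2 difference went from 0.63 to 0.55 for 100 and 75 pg, from 0.77 to 0.68 for 100 and 50 pg, and from 0.61 to 0.61 for 75 and 50 pg.

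Among the 1709 nuclear genes with a mean of at least 100 CPM, the median ratio of the highest to the lowest library was 1.51, and 81.6% stayed below 2. The largest ratio, 5.36, was that of AT1G22270, a Trm112-like methyltransferase partner, with 47.4, 183 and 254 CPM at 100, 75 and 50 pg. RR20, a two-component response regulator, followed in the other direction, with 358, 160 and 79.0 CPM. L41 (AT2G40205) had 133, 561 and 495 CPM, and AT1G06515, a putative membrane protein, 46.4, 192 and 74.8 CPM. PRL, the replication licensing factor MCM7, had 199, 73.7 and 55.6 CPM. The other 5 of the 10 largest ratios, 3.48 to 3.85, belonged to AT4G00585, NRPB10, AT5G38170, AT3G09735 and AT2G02050, each lowest at 100 pg and with a model of at most 647 bases.

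The 5 smallest ratios were 1.01 to 1.02. AT1G74060, for ribosomal protein L6, had 562, 566 and 566 CPM, and AT3G53870, for S3, 890, 907 and 892 CPM. RPL27, for large subunit protein 27, had 289, 290 and 286 CPM, CPN60A, the plastid chaperonin, 369, 374 and 375 CPM, and AT4G16146, a small phosphoprotein, 110, 113 and 112 CPM. By class, the median ratio of highest to lowest library was taken over genes of at least 1 CPM. It was 1.47 for the light reactions, 1.59 for translation factors and 1.63 for ribosomal proteins. For transcription factors it was 2.30, for the signalling class 2.34 and for the 16 storage and oil body genes 3.16. The median levels over genes detected in the 3 libraries were 207 TPM for the light reactions, 342 for ribosomal proteins and 11.7 for transcription factors.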

How the data were processed

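Read pairs per gene were analysed in the 3 libraries of 100, 75 and 50 pg. After trimming and removal of ribosomal reads, the authors used Bowtie2 to place read pairs on representative TAIR10 gene models, and deposited raw counts of pairs that mapped to 1 gene, beside reads counted singly and model lengths. TopHat2 is named only in the submitters' processing notes. Since the kit is amplified by PCR without molecular identifiers, pairs are not independent molecules. Counting does not use strand, so overlapping and antisense genes share reads.

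Organelle genes were left out. TPM was computed from pair counts and deposited lengths. TMM factors and dispersion came from edgeR 4.0.16 in R 4.3.3. Alternatives used DESeq2 1.42.0. Tables and plots were made in Python 3.11.15 (SciPy 1.17.1, pandas 2.3.3, NumPy 2.4.6, matplotlib 3.10.9). The dispersion fit was also run on simulated counts with the same coefficient of variation for all genes, lower than the common one fitted here. That run does not check the fitted value. With 1 library per amount no differential test was run, and no p-value is given. Names, coordinates and sequences are those of RefSeq for TAIR10.1, whose nuclear sequence is that of TAIR10 and which held a transcript for 97.7% of the models. RefSeq ends can differ from those of the deposited models.

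Members and lists were chosen with earlier results of these data known. Classes were assigned from gene and product names with patterns revised after the annotation was seen. By hand, 24 genes were reassigned after their values were seen. A class can therefore lack members or hold genes of another role. The genes named were the 30 with the highest mean TPM without a run of at least 30 A or T in the transcript and those with a run that would join them, 2 per class, 2 per marker list with members at 0, the 10 largest and 5 smallest ratios between libraries at 100 CPM or more, 10 transcription factors and 5 genes of unknown function. Further members of families, of the run group and of list differences were named after their values were seen. Of 120 list entries, 112 had their symbol at the same locus in the annotation. Alternatives concerned length, runs, single reads, normalization, filters, pseudocount and leaving out each library.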

Additional observations from a re-analysis of the deposited data

Results flagged for a closer look

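In 7 nuclear genes the reads counted singly, which enter no main value, were at least 10000 in each library and more than 10 for each pair, while the median gene of at least 10 CPM had 2.20, 2.08 and 2.07 single reads per pair at 100, 75 and 50 pg. AT3G30300, a protein-coding gene with a run of 26 A, had 2840466 single reads at 100 pg, 785965 at 75 pg and 732354 at 50 pg, against 94704, 56845 and 45214 pairs. AT2G28710 had 726580, 157631 and 139827 single reads, LIG6, a DNA ligase gene, 495344, 138888 and 131961, and AT5G30269 266543, 75380 and 71084. AT3G28980 had 259306 single reads at 100 pg, CRK14, a receptor kinase gene, 123140 and AT2G24760 69381. Of the 7, 6 have a run of 19 to 26 A or T in the RefSeq transcript, and CRK14 has none over 8. In each, the 100 pg library had the most single reads per pair. Where these reads lie in the models, and what they are, was not tested.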

How the results depend on the processing

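No paired analysis was possible because each amount has 1 library and no test was made. The number of genes detected in each library, 16751, was 14902 with at least 10 pairs, 16560 after thinning to the smallest total, 16888 with organelle genes and 17148 to 17812 when 1 library was left out. Of the 100 most abundant genes, 78 stayed on the list by CPM without length, 89 with 200 bases taken off each length, 94 by single reads, 95 without run genes and 92 to 98 when 1 library was left out, and 60 to 71 of the 100 coded for ribosomal proteins under these settings. The share of ribosomal proteins in the summed level, 26.1%, was 18.7% by CPM without length, which removes the weight of short models, and 25.0 to 28.0% when 1 library was left out. The site II share among the 100, 48%, was 48 to 52%. Of 195 values of TPM for 33 single genes under the alternatives, 8 moved by more than the spread between libraries, 5 of them with 200 bases taken off each length, among them LCR69, which then passed RBCS1A.

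The mean share of genes within 2-fold over the 3 pairs of libraries, 61.6%, was 54.7% with no filter, 73.1% from a mean of 10 CPM and 56.8 to 64.4% when 1 library was left out (56.8% without 75 pg). The mean Spearman's rho, 0.833, was 0.886 with no filter, 0.753 from 10 CPM and 0.795 to 0.846 when 1 library was left out. The mean Pearson's r, 0.827, was 0.899 with no filter, 0.877 with a pseudocount of 5, and 0.773 to 0.840 when 1 library was left out. The filters change which low genes enter. The common coefficient of variation, 0.781, was 0.899 with no filter, 0.482 from 10 CPM, 0.547 as DESeq2's median over genes, and 0.674 to 0.869 when 1 library was left out. The median log2 difference of 100 pg from the mean of 75 and 50 pg was -0.79 for models of up to 750 bases and 0.49 for those over 2000 bases, and -0.71 and 0.57 with library totals only. The other alternatives, DESeq2 size factors, single reads and run genes left out among them, moved these values by less than a limit set for each. For the agreement values the limit was the SD over the 3 pairs of libraries. For the common coefficient of variation it was the SD of the values with 1 library left out. For the length differences it was the size of the median difference of 75 minus 50 pg, or a small fixed floor where that was larger. The settings for length differences, site II and ribosomal share, and removal of the length trend, were chosen after seeing the data.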
